A study of Homo sapiens with 47 samples.

Results

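WM983B is a human melanoma cell line, and its vemurafenib-resistant cells were set against its parental cells by ATAC-seq, in which the transposase Tn5 tags accessible DNA. Vemurafenib is an inhibitor of the mutant BRAF kinase. The comparison rests on 4 of the 47 samples of the series, which holds 20 ATAC-seq libraries in all. They are 2 libraries labelled resistant and 2 labelled parental, numbered as replicates 1 and 2 in either group. No genetic change and no other agent is given for these 4 samples. The labels do not say at which dose the resistant cells were kept, whether they are a clone or a pool, or whether replicates were separate cultures, so the spread between libraries may be technical. Also used were a resistant and a parental list of H3K27ac, a mark of active promoters and enhancers, from the same line. Beside them stood 16 ATAC-seq lists of 451Lu, another melanoma line. Some of these 16 come from parental and resistant 451Lu cells. The rest come from 451Lu cells that overexpress c-JUN and c-FOS, carry a hairpin against the histone chaperone subunit CAF-1 p150, or both. Their vector and NT controls are included. The peaks of the 4 lists were merged wherever they shared at least 1 bp, which gave 201296 regions. A region was called gained when both libraries labelled resistant and neither library labelled parental had a peak in it, and lost in the reverse case. By this rule 2963 regions were gained and 2460 were lost.

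Melanoma cells that survive inhibition of BRAF are known to move along an axis between a pigmented state and a dedifferentiated one. The pigmented state is held by MITF and SOX10, which switch on genes of melanin synthesis such as TYR. In the dedifferentiated state receptor kinases such as AXL, EGFR and PDGFRB rise, and AP-1 factors of the JUN and FOS families open many enhancers.

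The 4 libraries did not pair by label, and this stands before every result below. The base overlap of 2 lists was measured as the Jaccard index, the bases in both lists over the bases in either. The libraries labelled resistant had an index of 0.509 with each other, and those labelled parental had 0.510. The libraries numbered 2 had an index of 0.609 although one is labelled resistant and one parental, and the libraries numbered 1 had 0.578. The remaining pairs, resistant 1 with parental 2 and resistant 2 with parental 1, had 0.510 and 0.506. Libraries with the same label were thus no more alike than libraries that shared neither label nor number. By peak score, too, the equally numbered libraries were the most alike over the 76508 regions called in all 4 libraries. There Spearman's rho across regions, which are not independent replicates, was 0.637 between the libraries labelled resistant and 0.655 between those labelled parental. It was 0.850 between the libraries numbered 2 and 0.823 between those numbered 1. It was 0.651 for resistant 1 with parental 2 and 0.637 for resistant 2 with parental 1. Which label, if any, is in error cannot be told from these lists, so each library is named below by the label it carries.

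**Figure D1:**
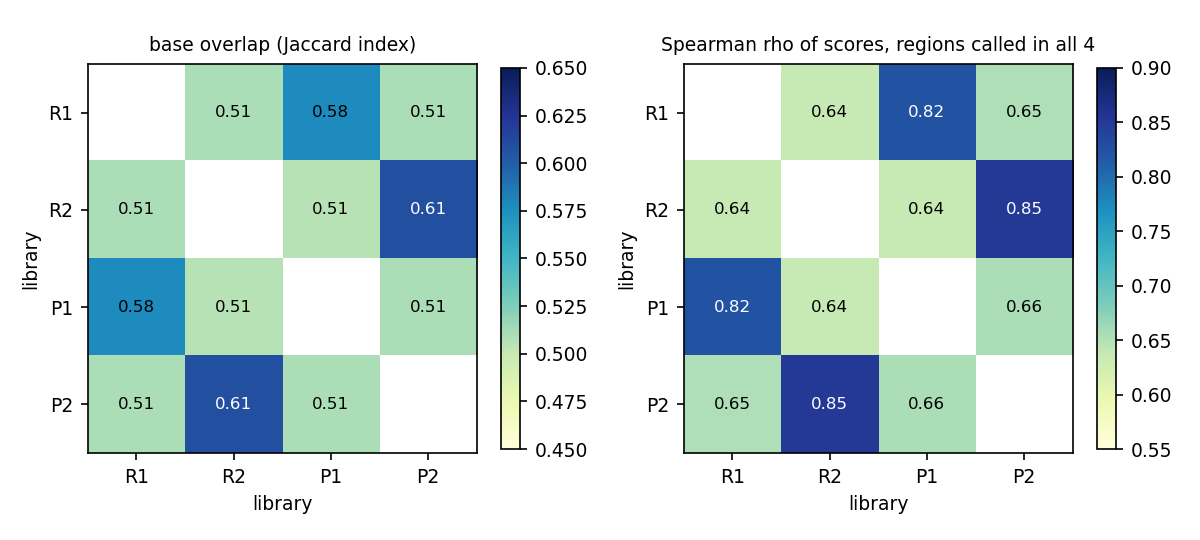
Likeness of the 4 WM983B ATAC-seq libraries, with R for libraries labelled resistant, P for those labelled parental and the replicate number after the letter. The left panel gives the Jaccard index of bases and the right panel Spearman's rho of peak scores over the 76508 regions called in all 4; in both, the highest values lie between libraries of the same number, R2 with P2 and R1 with P1.

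The lists were of similar length. The libraries labelled resistant held 132326 and 144713 peaks, against 129339 and 147988 peaks in those labelled parental, on chromosomes 1 to 22 and X. The means were 138520 ± 8759 and 138664 ± 13187 peaks (SD, n = 2 each), so the groups overlapped. Covered bases were 30.0 and 36.1 Mb in the libraries labelled resistant, against 29.2 and 32.6 Mb in those labelled parental. Resistant 2 had the higher scores, with a median of 8.81 against 6.57 in resistant 1, while parental 1 and parental 2 had 6.50 and 6.74. The sequencing depth behind these lists is unknown.

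By label, fewer regions changed than by replicate number. The 2963 gained regions were 1.47% of the 201296 regions (exact 95% binomial interval 1.42 to 1.53%, counting error only). The 2460 lost regions were 1.22% (1.17 to 1.27%). Gains were thus 1.20 times as many as losses, and 3.83 times as many (2545 and 664) where only peaks with a score of at least 5 were used. Only 348 of the 2963 gained and 124 of the 2460 lost regions scored at least 5 in both calling libraries. Most of the 2545 and 664 regions were therefore not gained or lost without that limit. That limit fell unequally on the lists. It removed 23.2% of the peaks of resistant 2, against 38.3% in resistant 1, 38.5% in parental 1 and 38.3% in parental 2. Its part in the larger ratio was not tested. Setting the libraries numbered 2 against those numbered 1 gave 17485 regions called in both libraries numbered 2 and in neither numbered 1, or 8.69%. The reverse held for 7798 regions, or 3.87%. The last way to pair a resistant with a parental library gave 2806 regions called only in resistant 1 and parental 2, or 1.39%, and 2574 called only in resistant 2 and parental 1, or 1.28%. By label the total was 5423 regions, against 25283 by number and 5380 by the crossed pairing. The total by number was 4.66 times that by label. The gained count lay at 1.06 times the higher crossed count, and the lost count at 0.877 times it. With 2 libraries against 2 there are 3 splits, and an exact two-sided permutation test can go no lower than 0.333. For the split by label the exact permutation p was 0.667, and 1 of the mixed pairings gave a total of nearly the same size. The change by label was not shown to exceed the spread between libraries. In a bulk assay, a change in the share of cells that are open at a site and a change within each cell cannot be told apart.

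**Figure D2:**
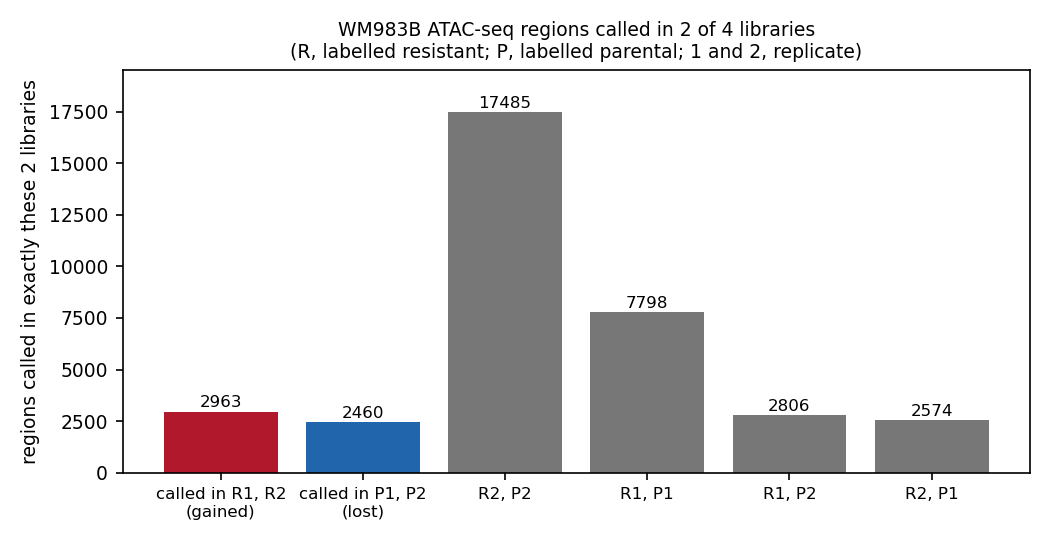
Number of WM983B regions called in exactly 2 of the 4 libraries, one bar for each pair of libraries, with R for labelled resistant and P for labelled parental. The bars by label reach 2963 and 2460, near the crossed bars at 2806 and 2574 and below the bars by replicate number at 17485 and 7798.

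Without one of the libraries the counts by label were higher, because a region then needs to be called or missed in fewer lists. Without resistant 1 there were 22639 gained and 7340 lost regions, and without resistant 2 there were 19012 and 9799. Without parental 1 there were 7282 gained and 20785 lost regions, and without parental 2 there were 10793 and 16294. Gains led when a library labelled resistant was left out, and losses led when one labelled parental was. The side left with 1 library needs a call in that library only, and the other side needs calls in 2. The rule thus favours the side left with 1 library, so this turn does not show which change by label is larger.

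Within the pairs of equal number, resistant 1 had 28472 regions that parental 1 lacked, and 10.4% of them were gained by the rule over all 4 libraries. Parental 1 had 25350 regions that resistant 1 lacked, of which 9.70% were lost by that rule. In the pair numbered 2 these were 28612 regions, 10.4% of them gained, and 27874 regions, 8.83% of them lost. Most differences within a pair were therefore not met in the other pair.

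Gained and lost regions were narrow and weakly scored. A region's smaller score is the lower of the authors' peak scores in the libraries that called it. Gained regions had a median width of 152 bp and a median smaller score of 3.51. Lost regions had 147 bp and 3.06. Regions called in all 4 libraries had 364 bp and 7.67. The smaller score was under 5 in 88.3% of gained and 95% of lost regions, compared with 62.8% of the regions open in both libraries numbered 2 and 30.3% of those called in all 4. A smaller score of 10 or more occurred in 1 gained and 1 lost region, and in 1073 of the regions open in the libraries numbered 2 and 174 of those open in the libraries numbered 1. The crossed pairing was like the split by label in this, with 1 and 3 such regions.

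**Figure D3:**
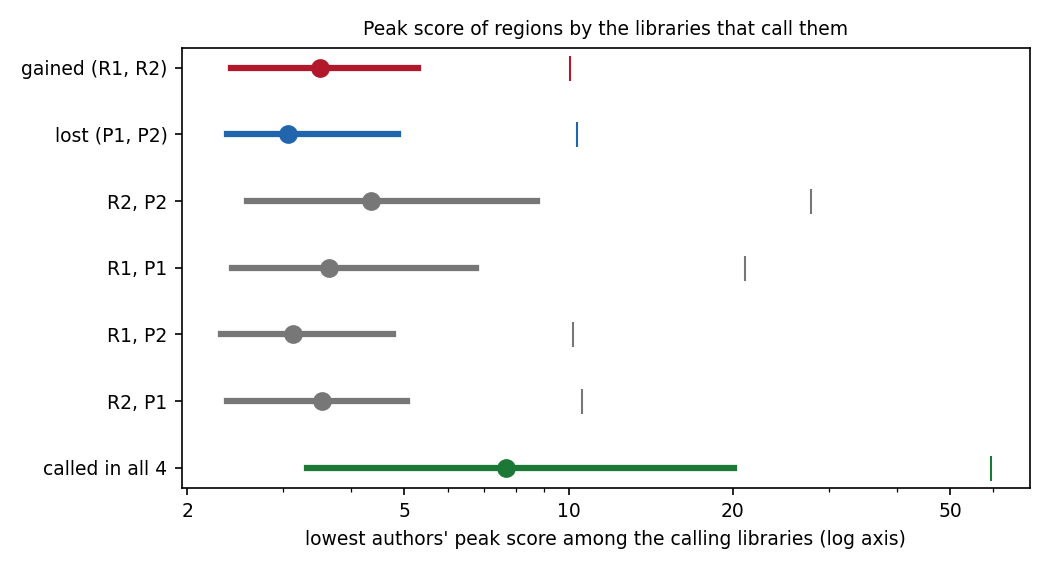
Smaller peak score of the regions in each call class on a log axis, with R for labelled resistant and P for labelled parental. Points are medians, thick bars run from the 10th to the 90th percentile and ticks mark the highest value; gained and lost regions, with medians of 3.51 and 3.06, lie with the crossed classes and below the regions called in all 4.

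The rule turns on whether a peak is listed at all. The gained regions nearest the limit had smaller scores of 1.31 and 1.32, and the lost regions nearest it had 1.33 and 1.34. Just outside stood 11740 regions called in both libraries labelled resistant and in 1 labelled parental. Their parental score had a median of 5.51 and a lowest value of 1.33. On the other side 11757 regions were called in both libraries labelled parental and in 1 labelled resistant, with a median resistant score of 6.80 and a lowest of 1.36.

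Gained regions were spread over the chromosomes, from 1.0% of the regions of chromosome 21 to 1.88% of those of chromosome 19. Lost regions made up 0.718% on chromosome 22 and 1.5% on chromosome X. Of the gained regions 29.4% lay within 1000 bp of a region called in all 4 libraries, against 14.7% of the lost ones. The crossed classes showed the same difference: 30.1% of the regions called only in resistant 2 and parental 1 lay that near, against 14.3% of those called only in resistant 1 and parental 2. Both classes with the higher share need a peak in resistant 2 and none in parental 2, so this difference between gained and lost regions was also met without regard to label.

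Among the gained regions the 10 with the highest smaller score had no H3K27ac peak in either WM983B list. Such peaks were rare over all gained regions as well. There 2.23% had one only in the resistant list, 2.5% only in the parental list and 5.43% in both. The first was chr10:97002836-97003035 (hg19), with scores of 10.1 and 13.8 in the libraries labelled resistant and no peak in those labelled parental. The next was chr11:6337175-6337291, with scores of 9.94 and 11.5 in the libraries labelled resistant. Then came chr7:33783995-33784122, with 14.2 and 9.77. The second and the third of these were called in none of the 16 libraries of 451Lu, which held for 4 of the 10 regions. All 4 resistant and parental libraries of 451Lu called 3 of the 10. Over all gained regions the shares were close to these, with 41.7% called in none of the 16 and 24.3% in all 4. At the top of the lost regions stood chr6:5379955-5380144, with no peak in the libraries labelled resistant and scores of 10.3 and 11.5 in those labelled parental. It was followed by chr10:102774171-102774269, with scores of 8.04 and 10.6 in the libraries labelled parental. The 10 lost regions of highest smaller score also had no H3K27ac peak. No 451Lu library called 4 of them, against 50.8% of all lost regions. Over all lost regions an H3K27ac peak was listed only in resistant cells in 0.976%, only in parental cells in 1.22% and in both in 1.5%. The scores of these leading regions lie below those by replicate number. The leading region open in the libraries numbered 2, chr3:126673284-126673639, scored 28.3 in resistant 2 and 27.8 in parental 2, and the leading one of the libraries numbered 1, chr17:58735493-58735784, scored 24.0 in resistant 1 and 21.1 in parental 1.

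The H3K27ac lists of WM983B and the 451Lu libraries are measurements that the rule did not use. Gained regions did not overlap the H3K27ac mark of resistant cells more often than that of parental cells. An H3K27ac peak listed only in resistant cells lay in 66 gained regions (2.23%, exact 95% interval 1.73 to 2.83%), and one listed only in parental cells in 74 (2.5%, 1.97 to 3.13%). In lost regions these were 24 (0.976%) and 30 (1.22%). Among the regions open in the libraries numbered 2 they were 344 (1.97%) and 131 (0.749%), and among those open in the libraries numbered 1 they were 30 (0.385%) and 289 (3.71%). The split by number thus separated resistant from parental H3K27ac, and the split by label did not. The H3K27ac lists used, 1 for each state, are both numbered replicate 2, so these shares have no replicate check. The series also names H3K27ac samples numbered 1, which were not used.

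In the 451Lu comparison, too, the split by number parted regions gained there from regions lost there, and the split by label did not. Of the regions called in all 4 WM983B libraries, 5.24% were gained and 1.09% were lost in resistant 451Lu cells. Of the gained WM983B regions 98 (3.31%) were gained and 64 (2.16%) were lost in resistant 451Lu cells, by the same rule applied to the 4 libraries of that line. Of the lost WM983B regions 88 (3.58%) were gained and 58 (2.36%) were lost there. Of the regions open in the libraries numbered 2, 1209 (6.91%) were gained and 99 (0.566%) were lost in 451Lu, and of those open in the libraries numbered 1, 163 (2.09%) were gained and 453 (5.81%) were lost. No library of 451Lu called 1235 of the gained regions (41.7%) and 1250 of the lost ones (50.8%), against 12.8% of the regions called in all 4 WM983B libraries.

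Taken library by library, the same measurements grouped the libraries by number. Of the 11191 regions gained in resistant 451Lu cells, resistant 1 and resistant 2 called 46.6% and 60.3%, against 45.8% and 59.2% in parental 1 and parental 2. Of the 4527 regions lost in resistant 451Lu cells, resistant 1 and resistant 2 called 44.0% and 28.1%, against 42.4% and 30.1% in parental 1 and parental 2. Resistant 1 thus lay with parental 1, and resistant 2 with parental 2. H3K27ac peaks listed only in resistant WM983B cells, 13499 in all, were called in 22.9% and 29.1% of cases in the libraries labelled resistant, against 22.3% and 26.6% in those labelled parental. The 27839 H3K27ac peaks listed only in parental cells were called in 11.3% and 9.94% of cases by the libraries labelled resistant, against 11% and 9.12% by those labelled parental. In both H3K27ac sets the exact 95% intervals of resistant 2 and parental 2 did not overlap. Lists cut to equal length left both libraries numbered 2 on the same side of both libraries numbered 1 in all 4 sets.

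**Figure D4:**
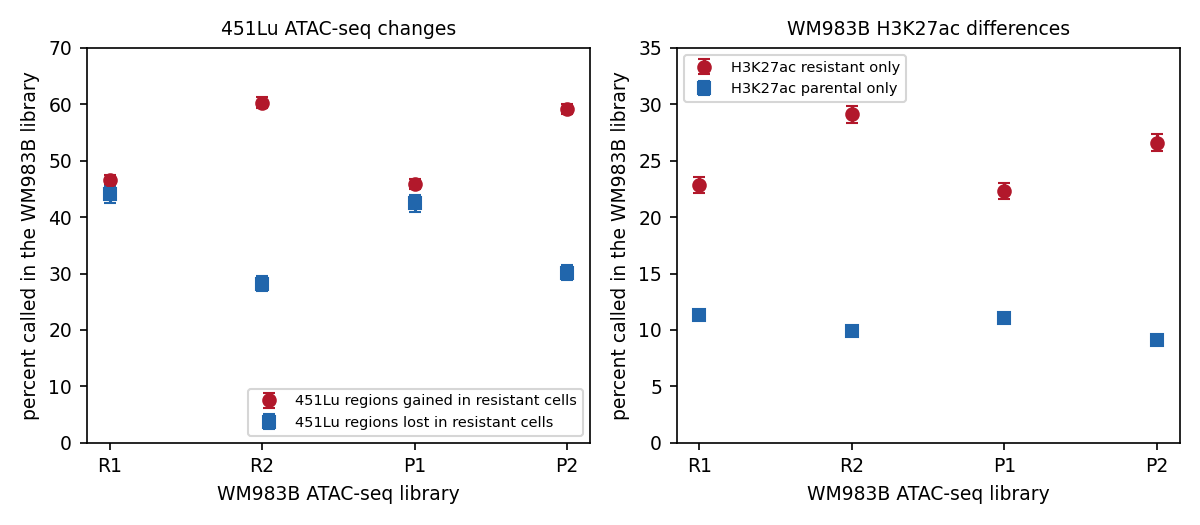
Share of each region set that was called in each WM983B ATAC-seq library (percent, bars are exact 95% binomial intervals that cover counting error only), with R for labelled resistant and P for labelled parental. The left panel shows regions gained and lost in resistant 451Lu cells, where R2 and P2 lie together, as do R1 and P1. The right panel shows H3K27ac peaks listed only in resistant or only in parental WM983B cells. There R2 and P2 lie on the same side of R1 and P1, but the intervals of R2 and P2 do not overlap.

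The score of a region called in all 4 libraries can also move with the label. Scores were turned into percentile ranks within each library, and a region was counted when both libraries of one side ranked it at least 20 percentile points above both of the other. By label, 449 of the 76508 regions (0.587%) ranked higher in the libraries labelled resistant and 410 (0.536%) ranked higher in those labelled parental. By number these were 5164 (6.75%) for the libraries numbered 2 and 5139 (6.72%) for those numbered 1. The crossed pairing gave 384 (0.502%) for resistant 1 with parental 2 and 424 (0.554%) for resistant 2 with parental 1. The counts by label were near those of the crossed pairing. Taken within the equally numbered pairs, 1117 regions (1.46%) ranked 20 points higher in the library labelled resistant in both pairs and 1020 (1.33%) in the one labelled parental. Opposite signs in the 2 pairs occurred at a similar rate, with 932 regions (1.22%) higher in resistant 1 and parental 2 and 1006 (1.31%) higher in parental 1 and resistant 2.

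At 81 genes in 10 lists, taken with 20 kb on either side, 942 regions were found, of which 428 were called in all 4 libraries. There were 25 gained regions (2.65%, against 1.47% of all regions) and 7 lost ones (0.743%, against 1.22%). In the libraries numbered 2 alone 63 were open (6.69%, against 8.69%), and in those numbered 1 alone 34 (3.61%, against 3.87%). The crossed counts were 15 (1.59%) and 9 (0.955%). At these genes, too, the larger side was the one left with 1 library, which the rule favours. There were 131 gained and 20 lost regions without resistant 1, and 98 and 41 without resistant 2. There were 50 gained and 68 lost regions without parental 1, and 48 and 54 without parental 2. At a score of at least 5 there were 6 and 2, but these were mostly other regions. Of the 25 gained regions only the one near DUSP6 kept its call at that limit, and none of the 7 lost regions did. The gained regions lay at 22 genes, and 13 of the 25 were within the gene body, as were 506 of the 942 regions. No 451Lu library called 12 of the 25, against 41.7% of all gained regions.

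Melanocyte lineage regulators held 3 gained and no lost regions out of 106. PAX3, a transcription factor of the neural crest and melanocytes, had 2 gained regions. The one in the gene body, chr2:223142951-223143158, scored 3.55 and 4.34 in the libraries labelled resistant, and the one 10.6 kb upstream of the start scored 3.40 and 4.34. TFAP2A, a factor that acts beside MITF in melanocytes, had 1 gained region, with scores of 3.67 and 3.23. MITF and SOX10 had none, although MITF had 53 regions, 27 of them called in all 4 libraries. Among pigmentation genes, 1 of 89 regions was gained. It lay in DCT, an enzyme of melanin synthesis, at 2.87 kb past the start, with scores of 4.45 and 6.32, and parental but not resistant cells had an H3K27ac peak there.

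The AP-1 family held 5 gained and 2 lost regions out of 92. Gained regions at JUNB, JUND, FOSB, FOSL1 and ATF3 had scores between 2.56 and 5.48 in the libraries labelled resistant. The 1 at FOSL1, which encodes the FOS-related factor FRA1, lay 9.18 kb downstream of the gene's start and scored 4.41 and 5.48. The 2 lost regions lay near JUN and FOSL2. The one at JUN had no peak in the libraries labelled resistant, against scores of 3.94 and 3.16 in those labelled parental. AP-1 members thus had regions in both classes.

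Receptors linked to resistance held 6 gained and no lost regions out of 193. MET, the receptor of hepatocyte growth factor, had 1 at 471 bp past its start, chr7:116312864-116312996, with scores of 3.78 and 2.55. IGF1R, the receptor of insulin-like growth factor, had 2 in the gene body. One of these, chr15:99320195-99320458, scored 7.14 and 4.28 in the libraries labelled resistant. KIT had 1 and ERBB2 had 2. None lay at EGFR, AXL or PDGFRB.

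In the RAS-RAF-MEK pathway and its feedback, 2 of 113 regions were gained and none was lost. DUSP6 encodes a phosphatase that removes phosphate from ERK. A region 18.8 kb upstream of its start, chr12:89765019-89765266, scored 5.55 and 11.7 in the libraries labelled resistant and was called in all 4 resistant and parental libraries of 451Lu. BRAF had 1 within the gene, with scores of 4.39 and 5.96. Dedifferentiation and mesenchymal genes held 4 gained and 2 lost regions out of 151. The gained ones lay at CDH2 (scores of 4.05 and 10.9), which encodes N-cadherin, VIM, ZEB2 and TWIST1. Both lost regions lay near SNAI2, a neural crest factor. They had no peak in the libraries labelled resistant, against scores of 3.76 and 5.21 at one and 3.37 and 4.35 at the other in those labelled parental, and all 16 libraries of 451Lu called both.

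Histone chaperones held 1 gained region out of 40, in HIRA, which places the histone variant H3.3. It scored 3.25 and 8.02. CDKN2A, which encodes the inhibitors p16 and p14ARF, had 1 gained region in the gene body and 1 lost region 1.51 kb upstream of the start. Constitutive genes also had 1 gained region, near ACTB, and 1 lost, near HPRT1. Markers of other cell types had 1 gained region, near KRT5, and 1 lost, near PTPRC.

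No listed promoter was called in both libraries of one label and in neither of the other. Within 1 kb of the start, 63 of the 81 genes had a peak in all 4 libraries, 12 had none in any, and 6 had one in some. All 8 constitutive genes, all 11 genes of the RAS-RAF-MEK list and all 5 histone chaperones were called in all 4 libraries. Of the markers of other cell types 3 of 10 were called, EPCAM, COL1A1 and COL1A2, each in all 4 libraries, and PTPRC, CD3E, KRT5, KRT14, ALB, CDH5 and COL3A1 were called in none. Of the melanocyte lineage regulators, MITF, SOX10 and PAX3 were called in all 4 libraries and TFAP2A in none. Of the pigmentation genes, DCT, PMEL, OCA2, SLC45A2 and RAB27A were called in all 4 libraries. TYRP1 and MLANA were called in none and TYR in some.

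The promoters called in some libraries included 3 that went with the replicate number. TYR encodes tyrosinase, the rate-limiting enzyme of melanin synthesis. Its promoter peak, chr11:88910909-88911271 in hg19, scored 10.8 in resistant 1 and 11.3 in parental 1 and was not listed in resistant 2 or parental 2. AXL encodes a receptor tyrosine kinase of the TAM family, and its peak, chr19:41725022-41725208, scored 6.54 in resistant 2 and 2.58 in parental 2 only. PDGFRB encodes a receptor of platelet-derived growth factor, and its peak, chr5:149535255-149535591, scored 8.86 in resistant 2 and 9.42 in parental 2 only. The other three were FOSB in resistant 2, WNT5A in parental 2, and ZEB1 in resistant 2 and parental 1. The TYR, AXL and PDGFRB promoters are shown because they are the listed starts whose calls split the libraries by number within 1 kb. Within 2 kb this held for PDGFRB and WNT5A: TYR then had a peak in all 4 libraries and AXL also had one in parental 1, with a score of 3.56. The sequences are RefSeq's, on the build GRCh38.p14, and run 5′ to 3′ from 250 bases before to 50 after the start. Capitals mark CATGTG on either strand, an E-box that MITF binds.

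TYR, chr11:89177625-89177924, plus strand: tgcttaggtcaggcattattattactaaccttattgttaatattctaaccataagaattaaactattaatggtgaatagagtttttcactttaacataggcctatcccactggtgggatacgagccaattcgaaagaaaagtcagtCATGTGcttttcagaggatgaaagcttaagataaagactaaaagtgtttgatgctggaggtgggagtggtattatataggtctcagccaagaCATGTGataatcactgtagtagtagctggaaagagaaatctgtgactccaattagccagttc
AXL, chr19:41218973-41219272, plus strand: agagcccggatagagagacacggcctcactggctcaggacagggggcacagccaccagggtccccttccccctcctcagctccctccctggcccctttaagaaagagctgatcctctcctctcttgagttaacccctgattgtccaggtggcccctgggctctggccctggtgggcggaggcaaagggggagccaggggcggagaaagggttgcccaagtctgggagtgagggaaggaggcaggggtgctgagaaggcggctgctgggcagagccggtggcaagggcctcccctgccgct
PDGFRB, chr5:150155796-150156095, minus strand: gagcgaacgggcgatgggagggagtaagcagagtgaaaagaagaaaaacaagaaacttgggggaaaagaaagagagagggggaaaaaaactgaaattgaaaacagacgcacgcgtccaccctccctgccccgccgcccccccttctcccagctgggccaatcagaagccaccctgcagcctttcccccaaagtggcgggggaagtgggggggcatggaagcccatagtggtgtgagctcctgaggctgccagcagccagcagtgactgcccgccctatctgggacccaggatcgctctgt

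CATGTG begins at 104 and 12 bases before the start in the TYR promoter and is not in the AXL and PDGFRB promoters printed. RefSeq gives AXL a further start downstream, whose promoter holds CATGTG once and is not printed. Of all 35116 RefSeq promoters of this length, 3897 (11.1%) hold CATGTG and 2707 (7.71%) hold TGANTCA, an AP-1 motif, on either strand. None of the 3 promoters printed holds TGANTCA. The 2 motifs can share bases at their ends, and a match is a description of the letters only.

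The best peak of each promoter was also given a percentile rank within its list, which allowed the 63 promoters called everywhere to be compared. By label the ranks did not overlap at 7 promoters that were higher in the libraries labelled resistant and at 14 that were higher in those labelled parental. These are 11.1% and 22.2% of the 63, against 11.4% and 12.2% of the 76508 regions called in all 4. By number they did not overlap at 19, higher in the libraries numbered 2, and 7, against 30.9% and 22.2% of all such regions. In the crossed pairing there were 12, higher in resistant 1 and parental 2, and 4, against 12.5% and 10.7%. By label none was apart by 20 points. The widest gap with both libraries labelled resistant above both labelled parental was 12 points, at IGF1R, and the widest in reverse was 12.7 points, at FOS, an AP-1 subunit. By number EGFR and KIT ranked higher in the libraries numbered 2 and DCT ranked higher in those numbered 1. EGFR scored 6.36 and 24.7 in the libraries labelled resistant, against 5.27 and 22.9 in those labelled parental, and its gap by number was 38.9 points. DCT scored 16.8 and 9.94 in the libraries labelled resistant, against 19.7 and 9.21 in those labelled parental. Each group by label thus held one high and one low library at EGFR and at DCT. SOX9, a factor of neural crest development, scored 10.8 and 29.7 in the libraries labelled resistant, against 5.66 and 13.2 in those labelled parental. Its groups overlapped, although within both equally numbered pairs the library labelled resistant ranked over 10 points higher. IGF1R did so as well, and PMEL, RAB27A and FOS ranked that much higher in the library labelled parental in both pairs. These 2 and 3 promoters are 3.17% and 4.76% of the 63. Over the 76508 regions called in all 4 libraries these shares were 6.50% and 6.52%. Those regions were ranked among themselves and the promoters within whole lists, so a gap of 10 points is not the same step in both. A gap of 10 points with opposite signs in the 2 pairs occurred at 3 promoters. Of these, 2 (3.17%) were higher in resistant 1 and parental 2, and 1 (1.59%) was higher in parental 1 and resistant 2. Over the 76508 regions, again ranked among themselves, these shares were 6.28% and 6.39%. For SOX9, an H3K27ac peak was listed in resistant cells only. MITF, at the start of its longest form, scored 37.2 and 53.8 in the libraries labelled resistant, against 40.2 and 44.4 in those labelled parental, and the groups overlapped.

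**Figure D5:**
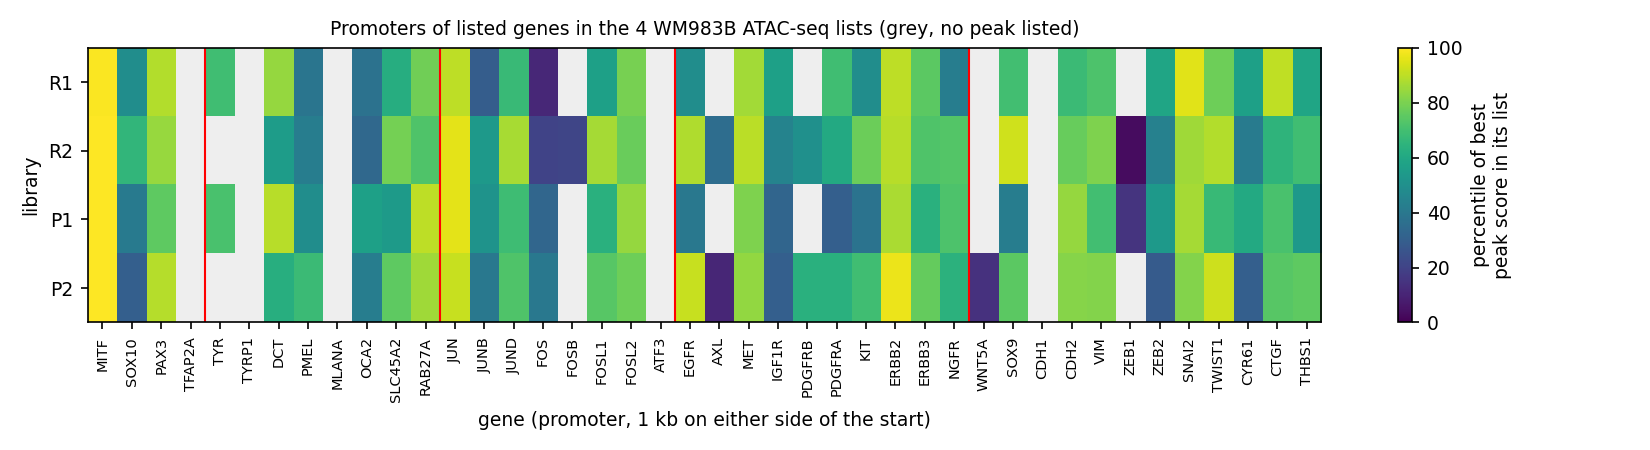
Percentile rank of the best peak within 1 kb of each gene's start, by library, for genes of 5 of the lists, with R for labelled resistant and P for labelled parental; grey means that no peak was listed and red lines part the lists. The columns of TYR, AXL, PDGFRB and EGFR differ between the libraries numbered 1 and those numbered 2, and no column sets R1 and R2 apart from P1 and P2 by 20 points.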

How the data were processed

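ATAC-seq peak lists of 4 WM983B libraries were analysed, beside 16 ATAC-seq lists of 451Lu and 2 H3K27ac lists of WM983B, both of replicate 2. Per the deposited files, each list holds the peaks of 1 library and the authors' own score for every peak. Tools listed without a role in the submitters' processing notes were MACS2, Bowtie2, SICER, Picard, deepTools and STAR 2.5.3, and the build was hg19. What the score measures, any read shifting and the depth were not given in the sources used here. Scores were set side by side across the 4 lists to describe and name regions and for score limits. They share no stated scale, so percentile ranks within lists or over regions called in all 4 libraries were used to compare libraries.

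Peaks on chromosomes 1 to 22 and X were merged at an overlap of 1 bp or more, and a region counted as called where a list had a peak in it. Gained and lost regions were compared with the 2 mixed pairings. Intervals are exact 95% binomial ones for counting error only. Whether replicate numbers pair the libraries was checked by base overlap and by ranks of scores: equally numbered libraries were the most alike, as the report gives. The labels do not say that a number marks a shared culture or day.

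The 10 gene lists and the members were chosen with earlier results of these data known. No hg19 annotation was used. Gene positions were written from general knowledge of hg19. All 81 lay on the chromosome that RefSeq gives in GRCh38.p14, and 69 had a length within 5% of RefSeq's. Named are the 10 gained and 10 lost regions of highest smaller score by their leading members, the 3 leading regions of each mixed count by their first, and regions at the listed genes. The values of 1 listed gene are not reported here, though it stays in the counts. Python 3.11.15, pandas 2.3.3, numpy 2.4.6, scipy 1.17.1 and matplotlib 3.10.9 were used. The counting was tested on simulated lists. Alternatives were a stricter score, lists of equal length, a covered share, a merge gap, other flanks and leaving out each library.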

Additional observations from a re-analysis of the deposited data

Results flagged for a closer look

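Regions that moved one way in WM983B and the other way in 451Lu were looked for, since every library of one line was then on the opposite side from the other. Of the 2963 gained WM983B regions 64 were lost in resistant 451Lu cells, and of the 2460 lost ones 88 were gained there. These are 2.16% and 3.58%. The crossed pairing gave similar shares, with 2.10% of the regions called only in resistant 1 and parental 2 lost and 4.35% of those called only in resistant 2 and parental 1 gained in 451Lu. The difference between the lines was not tested. These counts lay beside 98 gained regions that were also gained in 451Lu and 58 lost regions that were also lost there. The part of the library labels in these counts was not tested.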

How the results depend on the processing

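Gained regions numbered 2308 to 4319 under a stricter score, equal list lengths, 50% of the region covered and a 200 bp merge gap, and 7282 to 22639 with each library left out. Lost regions numbered 2178 to 3102, but 664 at a score of at least 5, and 7340 to 20785 with each library left out. At a score of at least 5 most gained and lost regions were others than without that limit. Only 348 and 124 of the original ones scored so high in both calling libraries. The highest mixed count was 13497 to 22990, and 24666 to 37776 with each library left out. With the replicate block, a gain required in both equally numbered pairs, 2963 regions were gained. This is the same set by construction, so that count cannot test the pairing. For score ranks the block, added after seeing the data, gave 1117 regions higher in the libraries labelled resistant and 1020 in those labelled parental, more than without it because each library is set against 1 other. With gene bodies only, the lost share at listed loci was 0%. At 10 percentile points 2167 regions ranked higher in the libraries labelled resistant and 2199 in those labelled parental, which turns the order of the counts. At a score of at least 5 the Jaccard index was 0.625 for resistant 1 with parental 1, 0.535 for resistant 1 with parental 2, 0.629 for resistant 2 with parental 2 and 0.533 between the libraries labelled parental; with equal lengths it was 0.624 for resistant 2 with parental 2. Other indices moved by under 0.01, the tolerance set, and equally numbered libraries had the highest indices under both settings. No named region turned from gained to lost or back. None of these settings could turn one, since they only remove calls or join peaks. The larger of the gained and lost counts turned where a library labelled parental was left out. The rule then asks for 1 parental call but 2 resistant ones, which favours losses. At listed loci the gained count was 6 and the lost count 2 at a score of at least 5, and at equal lengths 11 were lost. Of 52 named regions 21 kept their call at a score of at least 5. They were the 20 leading gained and lost regions and, of those at listed loci, only the one near DUSP6. Unknown depth limits every absent call, and the cause of these shifts was not tested.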
